A study of Homo sapiens with 8 samples.

Results

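The genes described here are 38 genes of the tight junction and of apical polarity, among 58233 genes in the deposited count table: 19 claudins, the 3 tetraspan proteins occludin, tricellulin and MARVELD3, 3 junctional adhesion molecules, 3 proteins of the cytoplasmic plaque, 8 polarity proteins, and the claudin partner EPCAM with the protease ST14. They were listed by name, and each was matched to 1 Ensembl gene. RNA was measured in HUES8 cells, an established human embryonic stem cell line, at stage 5 of a stepwise differentiation run in separate flasks. Buds, small structures shaken off the spheroids and separated by filtering, came from flasks 264, 270 and 274 (n = 3). Bulks, the larger spheroid fraction, came from flasks 252, 261, 264, 270 and 274 (n = 5). Every library derives from that 1 line, the labels name no treatment or genetic change, and nothing in them says that the buds of a flask hold 1 cell type. The design sets the outgrowths against the spheroids they leave. Libraries held 6083973 to 12508039 counts.

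Tight junctions join neighbouring epithelial cells just below their apical face, limit what passes between them and separate the apical from the basolateral membrane. Claudins form the strands, some as seals and some as pores for ions or water, while ZO proteins and cingulin tie the strands to actin. The PAR3, PAR6 and atypical protein kinase C complex and the Crumbs complex place the junction and the apical domain. In the developing pancreas the progenitor epithelium is polarised around lumens, and endocrine cells lose apical contact as they leave it to form islets.

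Promoter windows are shown for 5 of the genes, to set genes that fell beside genes that did not: the sealing claudins CLDN4 and CLDN6 and CRB3 of the Crumbs complex were lower in buds, CLDN12 did not pass the test, and PARD6A was higher. Each window runs from 250 bases before to 50 bases after a RefSeq transcription start (GRCh38.p14), is printed 5′ to 3′ on the gene's strand, and has in capitals each match to CACCTG or its reverse complement CAGGTG, an E-box that the SNAI and ZEB repressors of epithelial genes are known to bind, and to the grainyhead-type motif AACCNGTT (AACNGGTT on the other strand). The motifs do not overlap each other. The windows lie at chr7:73830746-73831045, plus strand (CLDN4), chr16:3018134-3018433, minus strand (CLDN6), chr19:6464021-6464320, plus strand (CRB3), chr7:90403211-90403510, plus strand (CLDN12) and chr16:67660710-67661009, plus strand (PARD6A).
CLDN4: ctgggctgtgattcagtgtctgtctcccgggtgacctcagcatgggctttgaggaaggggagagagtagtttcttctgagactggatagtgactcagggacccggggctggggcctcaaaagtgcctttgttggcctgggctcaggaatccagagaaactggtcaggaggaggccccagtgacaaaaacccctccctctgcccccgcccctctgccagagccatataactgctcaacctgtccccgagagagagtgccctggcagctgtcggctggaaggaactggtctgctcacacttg
CLDN6: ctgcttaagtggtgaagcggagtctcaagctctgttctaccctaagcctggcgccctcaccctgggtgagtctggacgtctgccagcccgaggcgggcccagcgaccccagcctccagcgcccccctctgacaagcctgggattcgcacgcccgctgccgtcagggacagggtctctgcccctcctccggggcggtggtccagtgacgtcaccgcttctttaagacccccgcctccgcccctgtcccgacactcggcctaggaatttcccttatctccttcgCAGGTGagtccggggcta
CRB3: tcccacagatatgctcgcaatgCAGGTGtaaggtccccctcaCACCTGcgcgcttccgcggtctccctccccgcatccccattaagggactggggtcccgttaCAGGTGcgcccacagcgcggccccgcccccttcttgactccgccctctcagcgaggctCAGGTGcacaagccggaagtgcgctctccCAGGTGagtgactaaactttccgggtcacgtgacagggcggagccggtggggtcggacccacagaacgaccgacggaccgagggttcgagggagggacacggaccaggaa
CLDN12: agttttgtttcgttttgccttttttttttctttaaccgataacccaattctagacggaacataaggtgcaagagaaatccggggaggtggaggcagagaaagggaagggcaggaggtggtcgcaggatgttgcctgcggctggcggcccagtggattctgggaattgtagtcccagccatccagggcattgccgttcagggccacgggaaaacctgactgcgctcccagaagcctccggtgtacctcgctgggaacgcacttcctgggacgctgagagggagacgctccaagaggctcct
PARD6A: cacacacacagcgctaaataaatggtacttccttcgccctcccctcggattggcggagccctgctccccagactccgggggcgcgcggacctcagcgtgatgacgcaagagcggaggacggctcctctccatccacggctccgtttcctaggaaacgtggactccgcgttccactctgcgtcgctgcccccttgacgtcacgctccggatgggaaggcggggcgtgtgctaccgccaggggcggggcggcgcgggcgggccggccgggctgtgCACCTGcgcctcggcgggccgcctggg

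The E-box letters occurred 5 times in the CRB3 window, once in those of CLDN6 and PARD6A, and not in those of CLDN4 or CLDN12; none of these 5 windows held the grainyhead letters. Of the 38 genes, 24 had a window in the RefSeq table, 40 windows in all, and 16 of these (40%) held the E-box against 20.6% of all 35116 windows. Among matched genes the E-box stood in at least 1 window for 9 of 13 that fell, for 1 of 6 that did not pass, for 2 of 4 that were not tested, and for PARD6A, the 1 matched gene that rose. The grainyhead letters were in 1 of the 40 windows, that of CGN, against 1.73% of all windows. Genes with several starts had several chances of a match, and matches are letters, not shown sites. The share of all genes with at least 1 such window was not counted, so the counts per gene have no base. Any link of the E-box to a fall or rise was not tested.

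Most of the genes were lower in buds. Of the 38, 33 passed the expression filter and 5 did not. Of the 33, 22 fell and 2, JAM3 and PARD6A, rose in buds by edgeR's quasi-likelihood test at a Benjamini-Hochberg adjusted p of 0.05 over all 16641 genes tested, and 9 did not pass. Over all genes tested 47.2% were called, 23.8% lower and 23.4% higher. These shares are also the base for the counts by role given below, each of which covers few genes. The fall was at least 2-fold for 17 of the 33 (12.5% of all genes tested) and at least 4-fold for 9 (4.77%). The median log2 fold change of the 33 genes was -1.08, and that of all genes tested -0.02. Every bud was below every bulk for 21 of the 33 genes, all among the 22 that fell, beside 23.7% of all genes tested. Every bud was above every bulk for 2 of the 33, JAM3 and PARD6A, beside 23.5%. All 22 that fell were lower in the bud than in the bulk of each of the 3 flasks that gave both. Their medians were -1.43, -1.40 and -1.62 on the log2 scale in flasks 264, 270 and 274. These counts come from the values behind the calls and add no support to them. For the count within flasks, the share of all genes was not counted. With flask as a block 23 genes passed, all of them also called without it, against 39.8% of all genes. These are whole fractions, so fewer cells of a type and less RNA per cell cannot be told apart. Below, a level is in CPM, counts scaled to library size with TMM factors, for bulks in flask order 252, 261, 264, 270, 274 and for buds in flask order 264, 270, 274. A log2 fold change sets buds against bulks, negative where buds were lower, and carries the standard error (SE) of the fit.

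**Figure D1:**
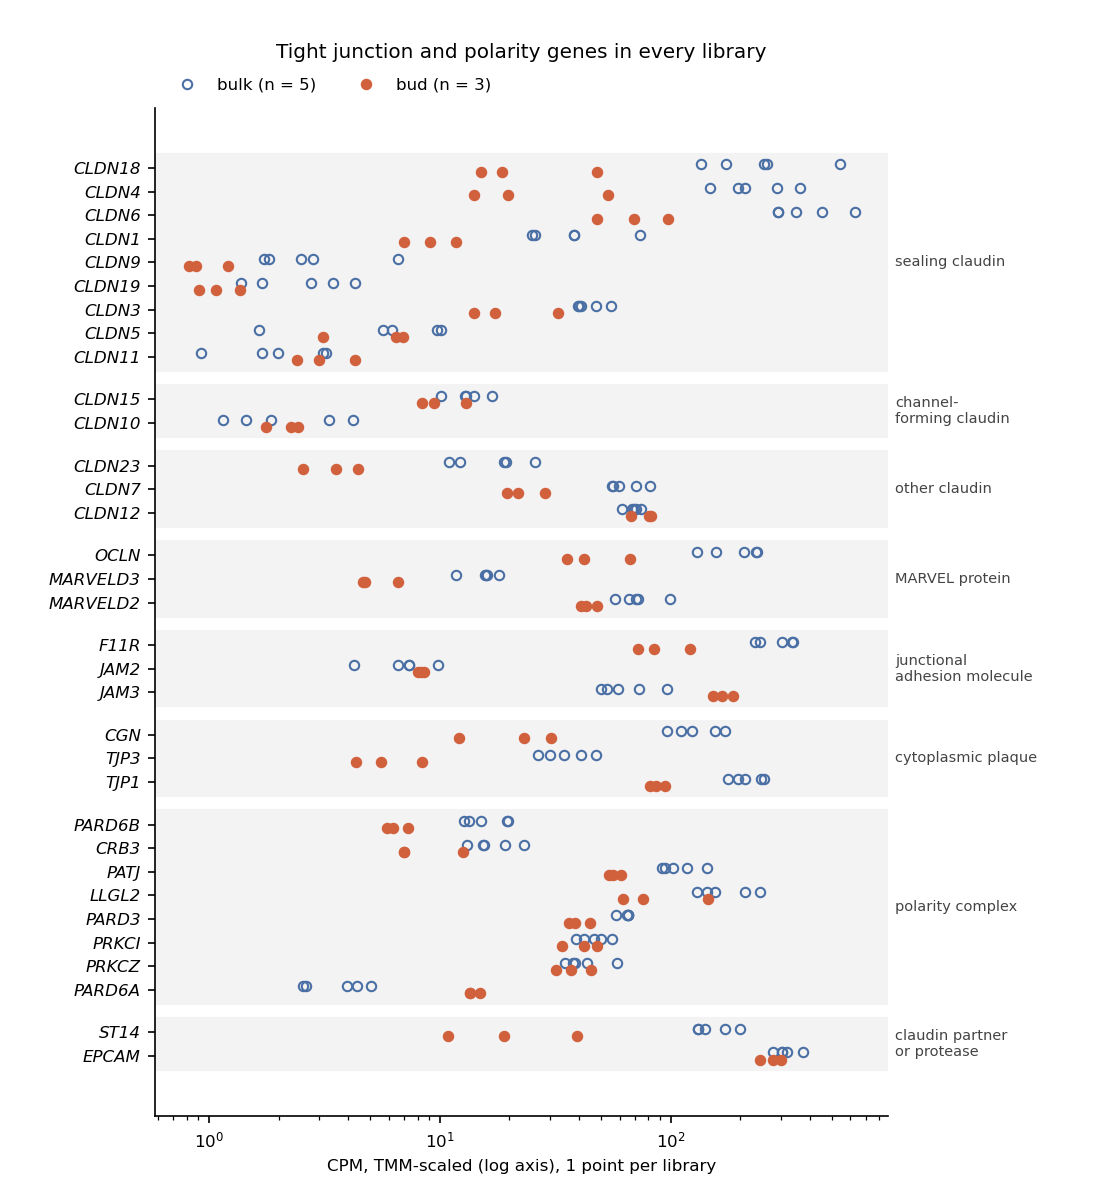
CPM (log axis) of the 33 genes that passed the expression filter, 1 point per library, with 5 bulks as open circles and 3 buds as filled circles, grouped by role. For 21 of the 22 genes that fell every bud lies left of every bulk, and for JAM3 and PARD6A every bud lies right of every bulk. Over all 16641 genes tested, every bud was below every bulk for 23.7% and above for 23.5%.

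Among sealing claudins, which tighten the barrier, 7 of the 9 tested fell. CLDN6, a claudin typical of embryonic epithelia, had the highest level per length of the claudins in bulks, 232 ± 81.4 CPM per kilobase of exon (SD, n = 5). It stood at 349, 454, 627, 292 and 292 CPM in the bulks and 96.9, 69.6 and 47.9 CPM in the buds, a log2 fold change of -2.50 ± 0.32 (SE, edgeR adjusted p = 0.000134). The lowest bulk was 3 times the highest bud. CLDN18, known from stomach and lung epithelium, was at 262, 540.4, 135, 174 and 253 CPM in the bulks and 47.9, 18.6 and 15.05 CPM in the buds. Bulks ranged from 135 CPM in flask 264 to 540.4 CPM in flask 261 and still lay far above the buds, with a log2 fold change of -3.35 ± 0.54 (SE, edgeR adjusted p = 0.000568), the largest fall among the 38 genes. CLDN4 stood at 195, 288, 363, 148 and 209 CPM in the bulks and 53.6, 19.7 and 14.01 CPM in the buds, with a log2 fold change of -3.06 ± 0.47 (SE, edgeR adjusted p = 0.000379). In each of these 3 genes the bud of flask 264 was the highest of the buds, and without it the folds were larger, 14.3 in place of 8.36 for CLDN4 and 16.2 in place of 10.2 for CLDN18.

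CLDN1, needed for the barrier of skin and liver, was at 37.96, 38.02, 73.9, 25.02 and 25.8 CPM in the bulks and 11.7, 9.07 and 6.96 CPM in the buds, and fell by 2.12 ± 0.37 on the log2 scale (SE, edgeR adjusted p = 0.000967). The bulk of flask 264 was far above the other bulks. CLDN3 shares a stretch of chromosome 7 with CLDN4, with a gap of 29.3 kb between the gene bodies (CLDN3 at 73768997 to 73770270, CLDN4 at 73799542 to 73832690, GRCh38). It had 40.9, 55.4, 47.3, 39.6 and 40.1 CPM in the bulks and 32.5, 17.4 and 14.01 CPM in the buds, a log2 fold change of -1.08 ± 0.26 (SE, edgeR adjusted p = 0.00564), and the bud of flask 264 was the one nearest to the bulks. The ratio of CLDN3 to CLDN4 per kilobase was 0.481 to 0.989 in bulks and 2.24 to 3.69 in buds. CLDN9 lies 206 bases from CLDN6 on chromosome 16 and encodes a close relative of it that is known from the inner ear. It was scarce, at 2.50, 1.72, 6.57, 2.83 and 1.81 CPM in the bulks and 1.21, 0.816 and 0.881 CPM in the buds, and fell by 1.65 ± 0.50 on the log2 scale (SE, edgeR adjusted p = 0.0196), a call that did not hold when the bud of flask 270 or that of flask 274 was set aside (edgeR adjusted p = 0.0791 and 0.0701). CLDN19, which in the kidney works with CLDN16, was at 2.77, 3.44, 4.27, 1.37 and 1.70 CPM in the bulks and 1.08, 0.907 and 1.36 CPM in the buds. Its log2 fold change of -1.23 ± 0.43 (SE, edgeR adjusted p = 0.0364) did not pass with flask as a block (edgeR adjusted p = 0.152), nor without the bulk of flask 252, 261 or 264 or any 1 of the buds (0.0611 to 0.133), and the highest bud and lowest bulk all but touched.

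The other sealing claudins did not pass. CLDN5, the main claudin of blood vessels, ranged from 1.64 to 10.1 CPM in bulks and from 3.12 to 6.89 CPM in buds, with a log2 fold change of -0.31 ± 0.47 (SE, edgeR adjusted p = 0.613). Of 9 endothelial markers, ERG, EMCN and ROBO4 had no count in any library, and PECAM1, CDH5, TEK and VWF reached 0.319, 0.320, 0.320 and 1.34 CPM at most. The other two were measurable and fell, TIE1 from 1.59 to 5.00 CPM in bulks to 0.480 to 0.816 CPM in buds (-2.30 ± 0.45, edgeR adjusted p = 0.00189) and EGFL7 from 5.80 to 10.6 CPM in bulks to 3.36 to 5.80 CPM in buds (-0.77 ± 0.27, edgeR adjusted p = 0.0364, and 0.0759 with flask as a block). CLDN11, known from myelin and testis, had 0.923 to 3.20 CPM in bulks and 2.40 to 4.30 CPM in buds (0.54 ± 0.39, edgeR adjusted p = 0.283). Among glial markers, MOG had no count and SOX10 and MAG reached 0.164 and 0.657 CPM at most. The myelin gene MBP rose, from 41.7 to 61.6 CPM in bulks to 88.3 to 92.9 CPM in buds (0.75 ± 0.13, edgeR adjusted p = 0.000989), and ERBB3 fell (-2.31 ± 0.40, edgeR adjusted p = 0.000881). S100B, below the filter, was higher in every bud than in any bulk (0.941 to 1.52 CPM against at most 0.548 CPM), and GFAP, at most 2.18 CPM, did not pass. CLDN14, known from the inner ear and kidney, was below the expression filter with at most 1 count in any library.

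No channel-forming claudin passed, and none of them exceeded 16.8 CPM. CLDN15, a cation channel of the intestine, was at 12.9, 14.04, 16.8, 12.9 and 10.1 CPM in the bulks and 9.41, 12.97 and 8.40 CPM in the buds (-0.37 ± 0.21, edgeR adjusted p = 0.175), so the groups overlapped. CLDN10, whose isoforms form anion or cation channels and are not told apart by gene counts, was at 1.15 to 4.20 CPM in bulks and 1.76 to 2.42 CPM in buds (-0.20 ± 0.43, edgeR adjusted p = 0.723). CLDN2, a cation and water channel of leaky epithelia, was below the filter, with 20 counts over the 5 bulks and 1 over the 3 buds. CLDN16, a kidney claudin for magnesium uptake that lies head to head with CLDN1 on chromosome 3, 94 bases away, had 9 counts over all bulks and 2 over all buds. A count of 0 in a library allows a level of up to 0.240 to 0.493 CPM (3 counts).

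Of the remaining claudins, CLDN7 and CLDN23 fell and CLDN12 did not pass. CLDN7, a claudin that EPCAM binds, was at 59.98, 81.1, 70.99, 56.2 and 55.9 CPM in the bulks and 28.6, 21.9 and 19.6 CPM in the buds, with a log2 fold change of -1.48 ± 0.18 (SE, edgeR adjusted p = 0.00011) and no overlap of the groups. CLDN23, expressed in gut epithelium, was at 19.4, 25.7, 18.9, 10.96 and 12.2 CPM in the bulks and 4.44, 3.54 and 2.56 CPM in the buds, and fell by 2.32 ± 0.33 on the log2 scale (SE, edgeR adjusted p = 0.000262), each bud being below 5 CPM. CLDN12, a claudin that lacks the usual C-terminal motif for binding ZO proteins, varied little, at 69.2, 74.6, 61.8, 70.7 and 68.1 CPM in the bulks and 67.4, 80.7 and 81.9 CPM in the buds. Its log2 fold change was 0.16 ± 0.12 (SE, edgeR adjusted p = 0.298), between 0.11 and 0.24 whichever library was left out. CLDN12 lies within reach of CDK14 and GTPBP10 on the same strand, so some of its reads could be shared. As use of strand is not stated, reads of CLDN6, CLDN7, CLDN10, TJP3, CRB3, MARVELD3, JAM2, JAM3 and PRKCZ cannot be told from those of TNFRSF12A, ELP5, DZIP1, APBA3, SLC25A23 and DENND1C, PHLPP2, ATP5PF, NCAPD3 and FAAP20 where these overlap on the other strand. By highest count in any library, SLC25A23 (736) and DENND1C (353) exceeded CRB3 (175), and PHLPP2 (428) exceeded MARVELD3 (150). DZIP1 (509) likewise exceeded CLDN10 (46), and ATP5PF (604) exceeded JAM2 (108). The others stayed below the listed gene, though in buds ELP5 (600) exceeded CLDN7 (245) and APBA3 (122) exceeded TJP3 (62). CLDN8 and CLDN20 were below the filter, with at most 12 and 6 counts in any library.

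**Figure D2:**
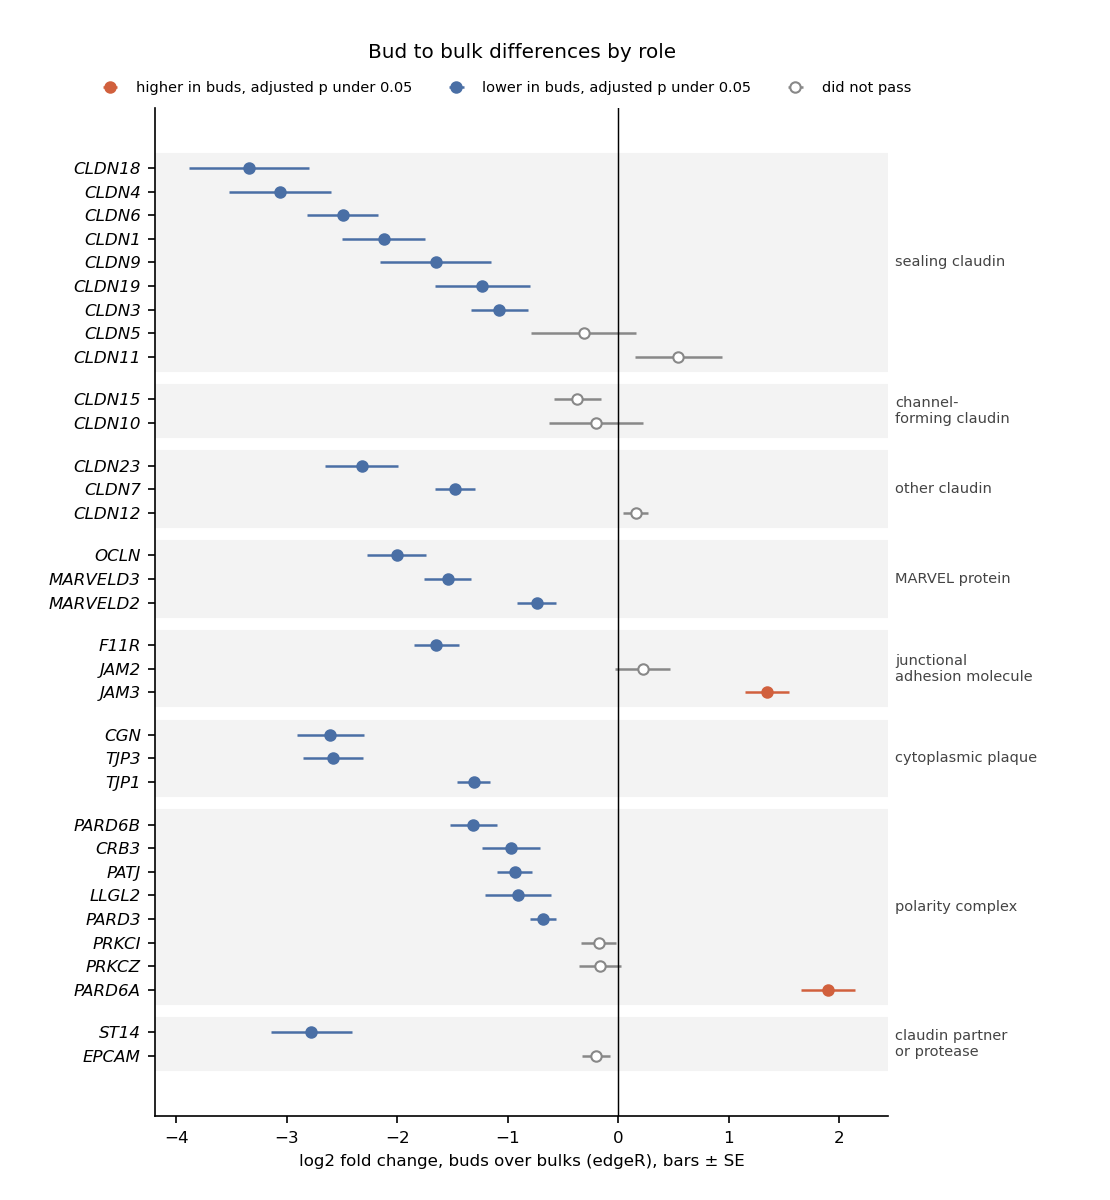
Log2 fold change of buds over bulks (x axis, edgeR, bars ± SE) for the 33 genes tested, grouped by role, filled where the adjusted p was under 0.05. The 22 genes that fell span -0.68 (PARD3) to -3.35 (CLDN18), and JAM3 (1.34) and PARD6A (1.90) stand to the right of zero.

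Together the 19 claudins summed to 408, 587, 592, 334 and 367 CPM per kilobase in the bulks and 141, 96.8 and 75.1 in the buds, with no overlap. As a share of that sum, CLDN6 made up 50.1% ± 6.50 in bulks (SD, n = 5) and 39.2% ± 2.38 in buds (SD, n = 3), the largest share per length in every library. CLDN18 and CLDN4 made up 16.2% ± 6.82 and 11.03% ± 1.51 in bulks but 6.56% ± 2.22 and 5.46% ± 2.28 in buds, though the CLDN18 share of the bulk of flask 264 (6.16%) was within the range of the buds. The shares of CLDN3 and CLDN12 were larger in buds, at 15.6% ± 2.15 and 11.9% ± 4.59, against 7.88% ± 1.15 and 2.38% ± 0.648 in bulks. Shares are descriptive, and the share of a claudin whose level varied little, such as CLDN12, is larger wherever the sum is smaller. Exon lengths were taken over all annotated transcripts, which overstates the length of a gene whose long isoforms are not used. With counts not divided by length, the mean shares of CLDN12 were 6.15% in bulks and 28.5% in buds, and those of CLDN6 33.8% and 24.6%. On that scale CLDN12 and not CLDN6 had the larger mean share in buds, and it was above CLDN6 in the buds of flasks 270 and 274.

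**Figure D3:**
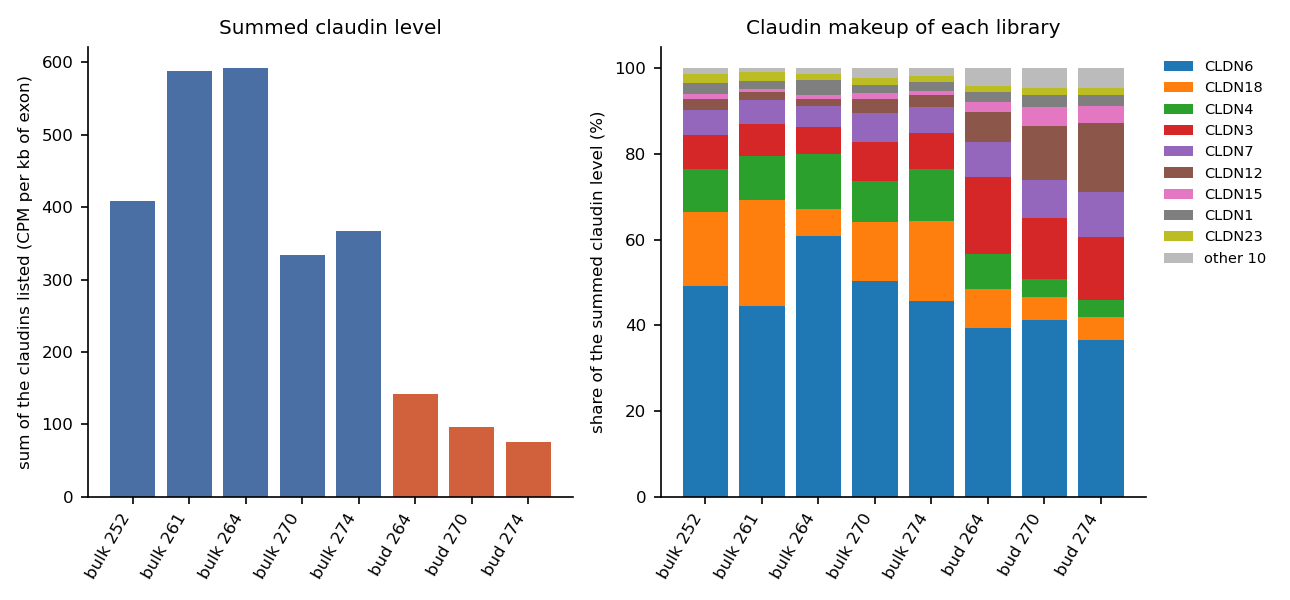
Left, sum of the 19 claudins in each library (CPM per kilobase of exon); right, the share of that sum (%) held by each claudin, stacked per library. The 5 bulks stand at 334 to 592 and the 3 buds at 75.1 to 141, and the CLDN6 block, per length, is the largest in every bar while the CLDN3 and CLDN12 blocks are taller in every bud than in any bulk.

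All 3 MARVEL proteins, tetraspan proteins that sit in the strands beside claudins, fell. OCLN (occludin) stood at 237, 234, 129, 157 and 207 CPM in the bulks and 66.6, 42.3 and 35.6 CPM in the buds, a log2 fold change of -2.01 ± 0.27 (SE, edgeR adjusted p = 0.000164) with every bud well under every bulk. Reads of OCLN can be shared with its partial copy OCLNP1, which held at most 82 counts in any library against up to 1948 for OCLN. MARVELD3 was at 15.8, 18.01, 15.6, 11.8 and 15.97 CPM in the bulks and 6.59, 4.72 and 4.64 CPM in the buds, a log2 fold change of -1.55 ± 0.21 (SE, edgeR adjusted p = 0.000191). MARVELD2 (tricellulin), which seals the corners where cells meet, had the smallest fall of them (-0.74 ± 0.17, edgeR adjusted p = 0.00546), with mean levels of 73.2 ± 15.9 (SD, n = 5, bulks) and 43.9 ± 3.49 CPM (SD, n = 3, buds).

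The plaque proteins fell as well. TJP1 (ZO-1), the scaffold that binds claudins, occludin and actin, was at 254, 177, 210.3, 196 and 247 CPM in the bulks and 94.3, 81.4 and 86.6 CPM in the buds, a log2 fold change of -1.31 ± 0.15 (SE, edgeR adjusted p = 6.83e-05) with tight values in the buds. TJP3 (ZO-3), an epithelial relative, was at 40.7, 47.3, 34.5, 29.9 and 26.6 CPM in the bulks and 8.34, 5.53 and 4.32 CPM in the buds, and its fall of 2.58 ± 0.27 on the log2 scale (SE, edgeR adjusted p = 4.68e-05) was larger. CGN (cingulin), which links the plaque to actin and myosin, had 124, 156, 171, 111 and 96.4 CPM in the bulks and 30.3, 23.03 and 12.1 CPM in the buds and fell by 2.61 ± 0.30 on the log2 scale (SE, edgeR adjusted p = 8.15e-05). For both, every bulk was more than 3 times the highest bud.

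Junctional adhesion molecules, immunoglobulin-type proteins of the junction, went in different directions. F11R (JAM-A), the epithelial member, stood at 336, 304, 337, 231 and 243 CPM in the bulks and 122, 84.4 and 72.2 CPM in the buds, and fell by 1.65 ± 0.21 on the log2 scale (SE, edgeR adjusted p = 0.000121). An overlapping gene on the same strand, ENSG00000270149, had at most 186 counts in a library. JAM3 (JAM-C), at chromosome 11, 134069071 to 134152001, plus strand (GRCh38), was at 58.9, 52.9, 49.8, 96.2 and 73.02 CPM in the bulks and 167, 187 and 152 CPM in the buds, and rose by 1.34 ± 0.20 on the log2 scale (SE, edgeR adjusted p = 0.000348). Every bud was more than 1.5 times the highest bulk. JAM2 (JAM-B), the binding partner of JAM3, did not pass (0.22 ± 0.25, edgeR adjusted p = 0.495), with 4.24 to 9.86 CPM in bulks and 8.07 to 8.57 CPM in buds. Per kilobase, the ratio of JAM3 to F11R was 0.141 to 0.397 in bulks and 1.31 to 2.11 in buds.

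Of the 8 polarity genes 5 fell, PARD6A rose and both kinase genes did not pass. PARD6A and PARD6B encode PAR6 adaptors that bring CDC42 to atypical protein kinase C. PARD6A (chromosome 16, 67660946 to 67662774, plus strand, GRCh38) was at 3.95, 4.37, 2.63, 5.02 and 2.55 CPM in the bulks and 13.4, 14.9 and 13.5 CPM in the buds, and rose by 1.90 ± 0.24 on the log2 scale (SE, edgeR adjusted p = 0.000127). PARD6B was at 19.6, 12.7, 19.6, 13.4 and 15.1 CPM in the bulks and 7.26, 6.26 and 5.92 CPM in the buds, and fell by 1.31 ± 0.21 on the log2 scale (SE, edgeR adjusted p = 0.000538). The per-kilobase ratio of PARD6A to PARD6B was 0.425 to 1.18 in bulks and 5.85 to 7.51 in buds, above 1 in 3 of 3 buds and in 2 of 5 bulks. PARD6G, a relative outside the 38 genes named after its values were seen, fell less (-0.47 ± 0.14, edgeR adjusted p = 0.0149), and did not pass with flask as a block (0.0586) or without the bud of flask 264 (0.0621).

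Neither atypical kinase passed. PRKCI had 46.6 ± 6.65 CPM in bulks (SD, n = 5) and 41.2 ± 7.07 CPM in buds (SD, n = 3), with a log2 fold change of -0.18 ± 0.16 (SE, edgeR adjusted p = 0.386). PRKCZ had 42.6 ± 9.34 and 37.97 ± 6.84 CPM (-0.16 ± 0.19, edgeR adjusted p = 0.501), and for both kinases the groups overlapped. PARD3, the scaffold of the complex, fell by 0.68 ± 0.12 on the log2 scale (SE, edgeR adjusted p = 0.000843), the smallest fall among the genes that passed, with 58.0 to 65.5 CPM in bulks and 36.3 to 44.5 CPM in buds.

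PATJ and CRB3 of the Crumbs complex and the basolateral regulator LLGL2 fell by less than 2-fold. PATJ, a scaffold with many PDZ domains, had 109.8 ± 21.1 CPM in bulks (SD, n = 5) and 57.2 ± 3.69 CPM in buds (SD, n = 3), a log2 fold change of -0.94 ± 0.16 (SE, edgeR adjusted p = 0.000828). CRB3, the epithelial Crumbs protein, had 15.6, 23.2, 19.1, 15.3 and 13.1 CPM in the bulks and 12.6, 6.98 and 6.96 CPM in the buds, a log2 fold change of -0.97 ± 0.26 (SE, edgeR adjusted p = 0.0112), and with the bud of flask 270 or 274 left out it no longer passed (edgeR adjusted p = 0.0654 and 0.0566). LLGL2, which opposes atypical kinase at the basolateral side, was the 1 gene that fell with overlapping groups, at 155, 210.2, 244, 143 and 130.2 CPM in the bulks and 144, 76.00 and 62.3 CPM in the buds (-0.91 ± 0.30, edgeR adjusted p = 0.0267). Its adjusted p was 0.00374 with flask as a block, but it did not pass without bulk 261, bud 270 or bud 274 (0.0546, 0.124 and 0.11).

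EPCAM and ST14 parted. EPCAM is an epithelial adhesion protein that stabilises CLDN7 and CLDN1, and ST14 (matriptase) is a membrane protease known to cleave EPCAM. EPCAM was at 373, 302, 304, 277 and 319 CPM in the bulks and 277, 243 and 300.1 CPM in the buds, a log2 fold change of -0.20 ± 0.13 (SE, edgeR adjusted p = 0.223) that did not pass, with overlapping groups. ST14 was at 141, 201, 172, 131 and 131 CPM in the bulks and 39.1, 18.9 and 10.8 CPM in the buds, and fell by 2.78 ± 0.37 on the log2 scale (SE, edgeR adjusted p = 0.000164). Without the bud of flask 264, the highest of the buds, the ST14 fold was 10.5 in place of 6.86. Set against EPCAM in the same library and per kilobase, CLDN4 was at 0.270 to 0.617 in bulks and 0.0241 to 0.100 in buds, and CLDN6 at 1.28 to 2.88 in bulks and 0.223 to 0.489 in buds. These ratios restate the falls of both claudins beside the smaller change of EPCAM and add no support to them.

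**Figure D4:**
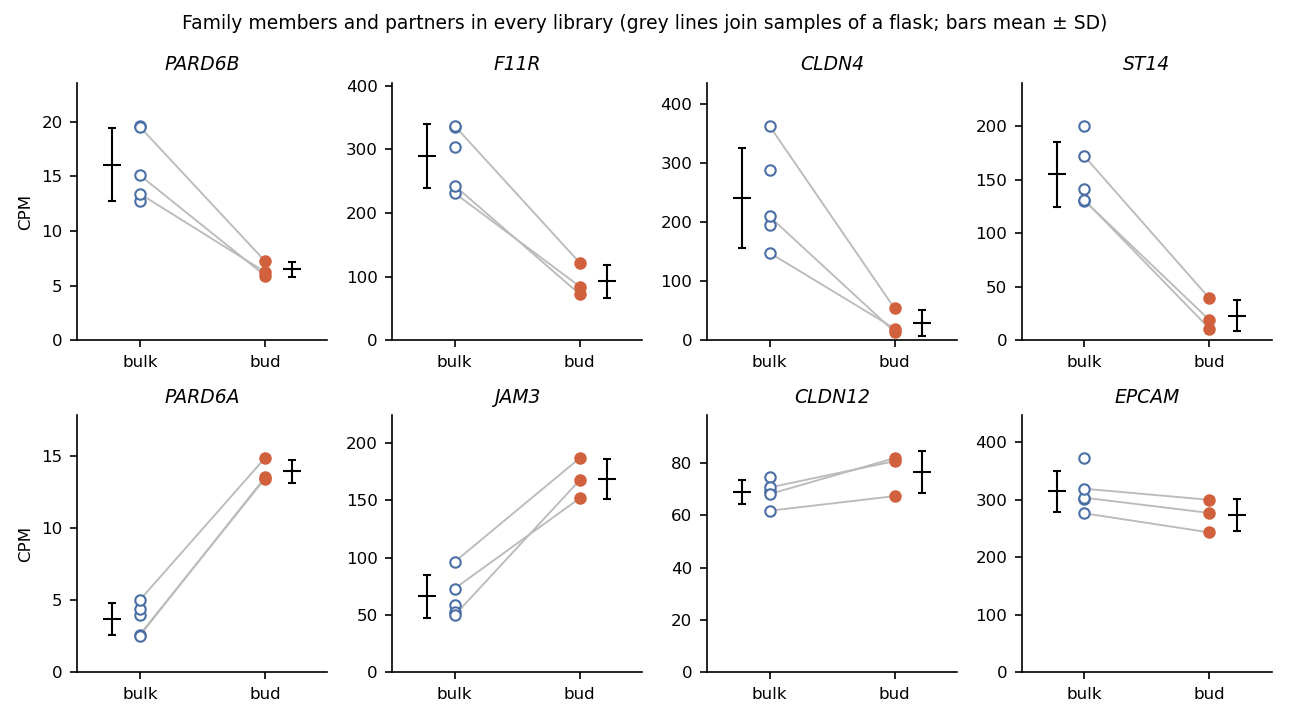
CPM (y axis from 0) in bulks and buds for 4 pairs of relatives or partners, with the gene that fell above and its partner below, and with grey lines joining samples of a flask and bars for the mean ± SD beside the points. PARD6A and JAM3 rise along every line, and PARD6B, F11R, CLDN4 and ST14 fall along every line. CLDN12 rises and EPCAM falls along every line too, by less, but their groups overlap and neither passed the test.

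Related genes outside the 38 were read from the same fit. Over all genes tested 23.8% were lower and 23.4% higher, the base for each list here. Of 24 further tight junction genes 18 were tested, and 6 fell and 5 rose, so calls went both ways as they did over all genes. The largest change was that of AMOT (angiomotin), which binds PATJ and YAP (-2.72 ± 0.23, edgeR adjusted p = 1.87e-05). Relatives again went apart in this list: the scaffold gene MAGI1 fell (-2.21 ± 0.18, edgeR adjusted p = 1.58e-05) while MAGI2 rose (1.66 ± 0.24, edgeR adjusted p = 0.000287), both named after their values were seen. Of 16 further polarity genes, all tested, 7 fell and 2 rose. CRB1, a Crumbs gene known from the retina, rose from 0.164 to 1.28 CPM in bulks to 4.71 to 12.4 CPM in buds (3.61 ± 0.48, edgeR adjusted p = 0.000175), and PARD3B fell (-2.63 ± 0.35, edgeR adjusted p = 0.00018). The other gene that rose, in the fit without a block, was LIN7B (2.06 ± 0.23, edgeR adjusted p = 6.28e-05), a PDZ protein bound by PALS1 and also found at synapses. With flask as a block 11 of the 16 passed: LIN7C, higher (0.0208), and SCRIB and STK11, lower (0.0146 and 0.0426), passed in addition, and PARD6G did not. LLGL1, the relative of LLGL2, did not pass (0.01 ± 0.15, edgeR adjusted p = 0.946).

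Of the 8 genes around matriptase, 7 fell and none rose, where 23.8% of all genes tested were lower and 23.4% higher. The largest fall was that of the protease gene TMPRSS2 (-3.10 ± 0.61, edgeR adjusted p = 0.0018), which fell further without the bud of flask 264, to -3.79. PRSS8 (prostasin), a protease that works with matriptase, named after its values were seen, fell too (-2.68 ± 0.32, edgeR adjusted p = 8.97e-05). SPINT2, an inhibitor of matriptase, did not pass (-0.01 ± 0.14, edgeR adjusted p = 0.963), and the inhibitor gene SPINT1 fell (-0.67 ± 0.15, edgeR adjusted p = 0.00474). Per kilobase, ST14 over SPINT1 was at 0.968 to 1.13 in bulks and 0.126 to 0.353 in buds. Of 11 epithelial transcription and splicing factors 10 fell and none rose, led by OVOL1 (-3.83 ± 0.44, edgeR adjusted p = 7.05e-05) and GRHL2, a transcription factor known to activate claudin genes (-3.30 ± 0.26, edgeR adjusted p = 1.52e-05).

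**Figure D5:**
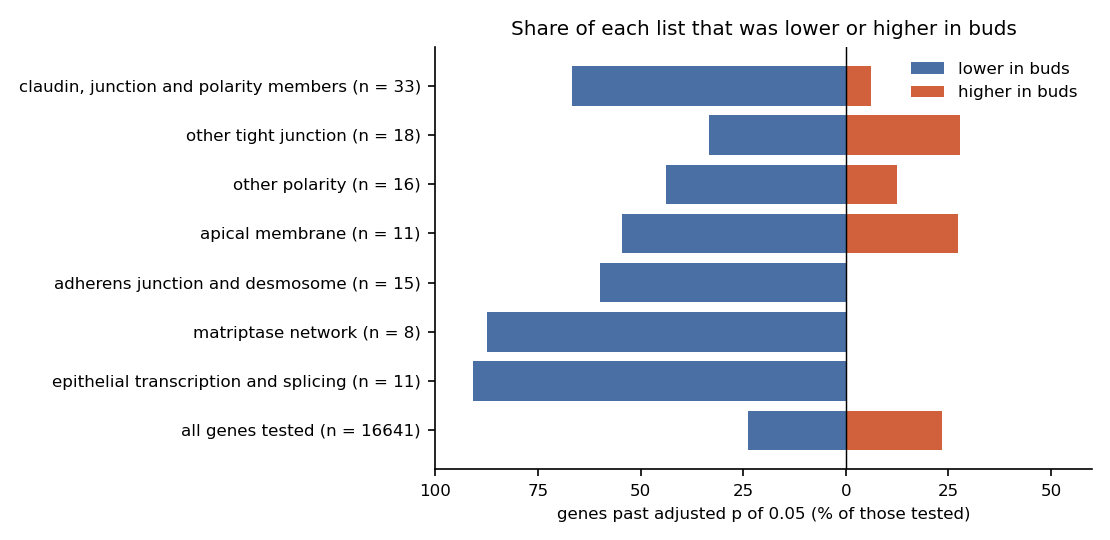
Percent of the tested genes of each list that were lower (left) or higher (right) in buds at an edgeR adjusted p under 0.05, with all 16641 genes tested as the last bar. The bar of the 33 tested junction and polarity genes stands for 22 lower and 2 higher, and the last bar for 23.8% lower and 23.4% higher.

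Marker genes of cell types moved with the groups, and their part in these differences was not tested. Over all genes tested 23.8% were lower and 23.4% higher. All 6 pancreatic progenitor markers fell and summed to 235 to 455 CPM in bulks and 60.4 to 96.1 CPM in buds, and all 10 neuronal markers rose and summed to 547 to 923 CPM in bulks and 2522 to 3756 CPM in buds. Endocrine markers, with 3 of 6 higher and none lower, summed to 2067 to 8422 CPM in bulks and 11296 to 21887 CPM in buds. CHGA was the largest part of that sum in every library, and INS, GCG and NEUROD1 did not pass. Of the other marker lists, mesenchyme had 2 of 7 tested higher and 1 lower (29.9 to 95.6 CPM in bulks and 42.4 to 126 CPM in buds), liver 1 of 8 higher and 3 lower (442 to 986 CPM in bulks and 543 to 1289.7 CPM in buds), and intestine and stomach 4 of 4 tested lower (265 to 416 CPM in bulks and 119 to 217 CPM in buds). TTR, which did not pass, was the largest part of the liver sum in every library but the bulk of flask 264. Endothelium had 2 of 9 markers tested, both lower (8.57 to 13.1 CPM in bulks and 5.51 to 7.98 CPM in buds), and glia 1 of 4 tested higher and 1 lower (238 to 317 CPM in bulks and 113 to 180.3 CPM in buds), the sum being mostly ERBB3 and MBP. The bud of flask 264 had the highest value of the 3 buds for 20 of the 22 genes that fell. The share of all fallen genes with this order was not counted. The same bud was the lowest of the buds for every neuronal marker but RBFOX3, with STMN2 at 719 CPM against 1138 and 1099.6. For RBFOX3 it was the highest, at 9.55 CPM against 9.25 and 7.20. It was also the highest bud for all 6 endocrine markers, and the part of these markers was not tested. Without both samples of flask 264, an alternative chosen after seeing the data, 23 of the 24 called genes passed, CLDN19 being the exception.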

How the data were processed

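RNA was measured in 8 libraries of HUES8 cells at stage 5, 5 of bulks and 3 of buds. Per the labels' protocols, polyadenylated RNA was selected and libraries were made with PrepX kits and read on an Illumina NextSeq. The deposited values are expected counts per Ensembl gene. Per the design text of the series and processing notes of the submitters, RSEM with STAR as its aligner assigned read pairs to GRCh38. Version, annotation release and strand use are not given in these sources. Reads that fit several genes are divided among them, and 11.5% of values were not whole.

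Counts were rounded to whole numbers. Of 58233 rows, 57392 (98.6%) matched GENCODE release 44, which gave symbols, coordinates and exon lengths. The groups were compared with edgeR 4.0.16 (R 4.3.3) with TMM factors, filterByExpr (at least 10 counts, total of at least 15), quasi-likelihood F tests and adjustment by Benjamini and Hochberg over all genes tested, with no covariate; the script was tested on simulated data. Alternatives were flask as a block or random effect, the 3 flasks with both samples, DESeq2 1.42.0, limma-voom (limma 3.58.1), other scalings, filters and threshold, and leaving out each library.

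The labels give buds and bulks shared flask numbers. Deviations of log CPM from the mean of each group correlated at 0.123 (flask 264), 0.134 (270) and 0.295 (274), each above 0.1. Flask was therefore used as a block in alternative fits. The main fit, which gave the p-values unless a block is named, took the 8 libraries as independent, although 3 flasks gave both samples. Some unmatched pairs were as high, at 0.134 (bud 264 with bulk 261) and 0.194 (bud 274 with bulk 252). Nothing says that flasks were separate thaws of the line, so p-values measure the spread between flasks of 1 line. No libraries of a group matched within sampling noise (lowest chi-square per gene 8.58). Counting limits cover counting error only.

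The 38 genes and all lists were chosen with earlier results of these data known. Named with their value in every library were listed genes past the threshold with an absolute log2 fold of at least 1 and the 3 claudins highest per kilobase. In the lists of related genes, the 2 largest changes past the threshold were named, except where a gene is not reported here. CLDN12, CLDN15, CRB3, EPCAM, LLGL2 and the further relatives were given so, or named, after their values were seen. Sequences are from RefSeq (GRCh38.p14).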

Additional observations from a re-analysis of the deposited data

Results flagged for a closer look

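In 3 of 33 tested genes 1 of the 5 bulks stood far from the others, its gap to the next value being more than 0.71 of the whole range. About 1 group in 20 would show this by chance. All 3 values lay in the bulk of flask 264. CLDN1 was at 73.9 CPM there and at 25.02 to 38.02 CPM in the other bulks. CLDN9 was at 6.57 CPM against 1.72 to 2.83 CPM. PARD3 was the lowest, at 58.0 CPM against 64.6 to 65.5 CPM. The same bulk stood apart in markers of several lists. It held the highest CDX2, a factor of the intestine, 71.3 CPM against at most 8.74 CPM in the other bulks. The liver marker FGB was also highest there, 150 CPM against at most 21.0 CPM. Of the other liver markers, FGA and APOA1 were highest there too (84.1 and 39.4 CPM). ALB, AFP and SERPINA1 were higher in the bulk of flask 261. TTR and APOA2 were lowest in the bulk of flask 264 (119 and 1.48 CPM). Of the list that holds CDX2, SOX2 was lowest there (42.4 CPM) and VIL1 lay among the other bulks (209 CPM). The endocrine marker CHGA was lowest too (1204 CPM). The part of these markers in the values above was not tested. Without this bulk the log2 fold changes were -1.79 (edgeR adjusted p = 0.000189) for CLDN1, -1.22 (edgeR adjusted p = 0.0153) for CLDN9 and -0.72 (edgeR adjusted p = 0.000712) for PARD3, and all 3 passed.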

How the results depend on the processing

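Of 24 called genes, 20 passed in each of the 8 fits that left out 1 library, and the counts there ran from 18 to 22 lower and stayed at 2 higher. CLDN19 was lost in 6 of the 8, LLGL2 in 3, and CLDN9 and CRB3 in 2. With flask as a block (which pairs the buds and bulks), with flask as a random effect, with the 3 flasks that gave both samples and with limma-voom, the only call lost was that of CLDN19. DESeq2 and the RLE, upper-quartile and unscaled library sizes kept the same 24 genes. Those scalings moved the median of all genes by 0.02, -0.05 and 0.04 (log2). With genes of at least 5 CPM in 3 samples, CLDN9 and CLDN19 were not tested, and with no filter CLDN2 also passed, at -3.34 (edgeR adjusted p = 0.0197). At an adjusted p of 0.01 CLDN9, CLDN19, CRB3 and LLGL2 were lost. CLDN10, which passed in none of these fits, turned from -0.20 to 0.11 without the bulk of flask 270 and ran down to -0.37 without that of flask 264. The CLDN12 share of the claudin sum was 9.55 percentage points higher in buds, 7.39 to 11.96 without single libraries, and 22.3 with counts not divided by length. Genes under about 10 counts a library, among them CLDN2, CLDN8, CLDN14, CLDN16 and CLDN20, are beyond what this depth can compare. The calls of CLDN9 and CLDN19 lie close to that limit. CLDN9 had 9, 9 and 11 counts in the buds of flasks 264, 270 and 274, and CLDN19 had 8, 10 and 17.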

Other observations

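Of 12 listed genes of the apical membrane 11 were tested, with 6 lower and 3 higher in buds, beside 23.8% lower and 23.4% higher over all genes tested. With flask as a block 7 of the 9 passed, the others being PODXL and VIL1. USH1C (harmonin), a PDZ protein of brush borders and hair cells, rose by 2.33 ± 0.33 on the log2 scale (SE, edgeR adjusted p = 0.000257), from 2.24 to 5.57 CPM in bulks to 12.4 to 27.0 CPM in buds. CDHR2, a cadherin that binds harmonin in brush borders, rose too (2.01 ± 0.55, edgeR adjusted p = 0.0116), from a level of at most 1.64 CPM in bulks. PODXL (podocalyxin), an apical sialoprotein that neurons also make, rose by 0.61 ± 0.20 on the log2 scale (SE, edgeR adjusted p = 0.0316), but did not pass with flask as a block (0.195) or without bulk 252, bulk 261 or bud 264 (0.0564, 0.0645 and 0.149). MUC1, a mucin of the apical surface, fell by 2.33 ± 0.40 on the log2 scale (SE, edgeR adjusted p = 0.000806), and EZR (ezrin), which ties the apical membrane to actin, by 2.16 ± 0.29 on the log2 scale (SE, edgeR adjusted p = 0.000169). PROM1 (prominin, -1.25 ± 0.16, edgeR adjusted p = 0.000156) and the transport motor gene MYO5B (-0.99 ± 0.15, edgeR adjusted p = 0.000373) fell as well. VIL1 (villin), a brush border protein, fell by 0.61 ± 0.20 on the log2 scale (SE, edgeR adjusted p = 0.0285), but not with flask as a block (0.0645) or without bulk 252, bulk 261, bud 270 or bud 274 (0.0523, 0.0553, 0.134 and 0.124). These genes other than USH1C and MUC1 were named after their values were seen.

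In adherens junctions and desmosomes, which hold cells together below the tight junction, 9 of 15 tested genes fell and none rose. Over all genes tested 23.8% were lower and 23.4% higher. The plakophilin genes PKP3 (-2.26 ± 0.34, edgeR adjusted p = 0.000359) and PKP2 (-1.63 ± 0.24, edgeR adjusted p = 0.000298) had the largest falls. DSP (desmoplakin) did not pass (-0.39 ± 0.19, edgeR adjusted p = 0.115), the bud of flask 264 being at 1434 CPM and the other buds at 782 and 850.3 CPM. Without the bud of flask 264 it passed, at -0.72 (0.00228). NECTIN1, a cell adhesion gene of the adherens junction, did not pass (0.21 ± 0.11, edgeR adjusted p = 0.136). The median log2 fold change was -0.68 over these 15 genes and -0.61 over the 11 apical ones, beside -1.08 for the 33 claudin, junction and polarity genes.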
